A study of Homo sapiens with 5 samples.

Results

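The type I and type II keratin gene clusters were examined in VCaP, an established human prostate cancer line, through every peak of H3K27ac or H3K4me1 that starts inside a fixed window around each cluster. The windows were chosen by position in the genome build hg19, chromosome 12 from 52550000 to 53360000 for the type II keratins and chromosome 17 from 38800000 to 39800000 for the type I keratins. They held 310 of the 364358 deposited peaks, 176 in the type II and 134 in the type I window. Of these, 38 and 43 came from H3K27ac replicates 1 and 2, and 111 and 118 from H3K4me1 replicates 1 and 2. Each mark was profiled by chromatin immunoprecipitation with sequencing in 2 libraries (antibodies ab4729 for H3K27ac and ab8895 for H3K4me1). All libraries came from the same line in serum-containing medium, with no treatment named. An input library also belongs to the study and was not used here. Whether the replicates of a mark are separate cultures is not stated; p-values measure only their spread, which may be technical.

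Keratins are the intermediate filament proteins of epithelia, built from pairs of one type I and one type II chain, and the genes of each type lie side by side in a cluster. The partners KRT8 and KRT18, together with KRT19, are the keratins of simple and luminal epithelium, including the secretory cells of the prostate. KRT5 and KRT14 are the pair of basal cells, and the hair keratins and keratin-associated proteins belong to the hair shaft. H3K27ac lies at active enhancers and promoters, whereas H3K4me1 lies at enhancers, active or not, and beside promoters.

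No gene annotation of hg19 was at hand. KRT5 was placed near 52.91 Mb, KRT8 and KRT18 at 53.29 to 53.35 Mb, KRT19 near 39.68 Mb and KRT14 near 39.74 Mb, as given with the choice of windows. Each window was divided into stretches in steps of 10 kb, named for the keratins they are known to hold. The luminal stretches are KRT8 and KRT18 (53.26 to 53.36 Mb) and KRT19 (39.68 to 39.71 Mb). The basal ones are KRT5 (52.89 to 52.93 Mb) and KRT14 (39.73 to 39.76 Mb). The hair stretches are the type II hair keratins (52.67 to 52.81 Mb), KRT39 and KRT40 with the keratin-associated proteins (39.1 to 39.49 Mb), and the type I hair keratins (39.49 to 39.65 Mb). The remaining 10 stretches hold the other keratins. Any other genes in the windows were not placed, so a peak in a stretch need not belong to its keratins. No peak is assigned to a start site.

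Promoter sequence could be shown for 2 of the 5 lead genes, KRT8 (luminal) and KRT5 (basal), as the 250 bases before the start in RefSeq (build GRCh38.p14, minus strand). They show the bases before the listed starts of a luminal and a basal type II keratin. The start listed for KRT8 lies inside the span of the gene, so its sequence is not shown to be the promoter in use. Both come from another build and cannot be placed on the peaks.
KRT8, chr12:52926470-52926719: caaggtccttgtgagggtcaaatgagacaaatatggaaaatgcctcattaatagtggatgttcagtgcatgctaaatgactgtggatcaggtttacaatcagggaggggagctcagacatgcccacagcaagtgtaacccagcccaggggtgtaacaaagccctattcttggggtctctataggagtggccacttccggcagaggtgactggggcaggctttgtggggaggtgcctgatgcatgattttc
KRT5, chr12:52520395-52520644: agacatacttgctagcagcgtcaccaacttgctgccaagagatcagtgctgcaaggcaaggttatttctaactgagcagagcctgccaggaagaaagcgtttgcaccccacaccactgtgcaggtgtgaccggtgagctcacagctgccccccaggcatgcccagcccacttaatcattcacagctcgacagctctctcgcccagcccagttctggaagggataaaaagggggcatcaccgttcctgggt
Their GC contents are 50.4% and 56%. Neither strand of either sequence holds the motif letters that were searched, so nothing is in capitals. The SP1 motif GGGCGG occurs in 42.6% of 35116 promoter sequences of that length. The share is 19.8% for the AP-2 motif GCCNNNGGC and 10.7% for the TATA box as TATAAA. It is 4.20% for the AP-1 motif TGAGTCA. For the FOXA motif it is 3.23% when spelled TGTTTGC, and 2.98% when the last but one letter is changed to give TGTTTAC. It is 1.78% for the ETS motif ACCGGAAG and 0.117% for the GRHL motif AACCGGTT. Each motif was counted on its own, so overlapping matches would count for both. KRT18, KRT19 and KRT14 are named only.

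H3K27ac covered a larger share of the luminal stretches than of the basal or hair stretches, taken as classes. In H3K27ac replicate 1 its peaks covered 13.0% of the luminal stretches, 4.47% of the basal ones and 0.844% of the hair ones. In replicate 2 they covered 12.7, 4.64 and 0.605%. The order luminal, basal, hair was the same in both libraries, and each step was larger than the difference between libraries. Within the basal class the stretches differed. KRT5 had 0% in both libraries, below the 0.994 and 1.01% of the type II hair keratins. KRT14 had 10.4 and 10.8%, as much as the 10.6 and 10.7% of KRT8 and KRT18. The step from basal to hair therefore rests on the KRT14 stretch. The class means were 12.8 ± 0.224% for luminal, 4.56 ± 0.122% for basal and 0.724 ± 0.169% for hair stretches (SD, n = 2). The luminal stretches make up 7.18% of the length of the windows and held 31.6 and 33.6% of their H3K27ac in replicates 1 and 2. The hair stretches make up 38.1% of the length and held 10.9 and 8.50%. The stretches of the other keratins make up 50.8% of the length and held most of the H3K27ac, 51.7 and 51.3%. Over the autosomes and chromosome X, H3K27ac peaks covered 2.48 and 2.30% of the span between the outermost peaks. No test was made between stretches, which share their libraries.

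**Figure D1:**
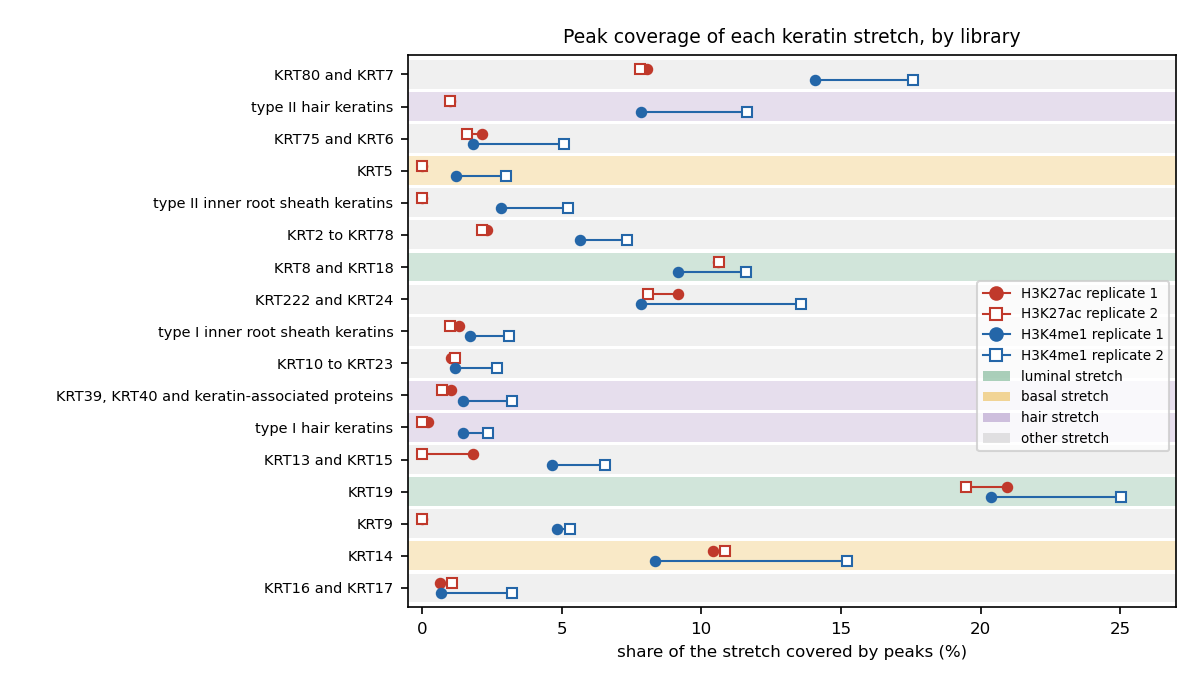
Share of each keratin stretch covered by peaks (horizontal axis, %), with 1 symbol per library (red H3K27ac, blue H3K4me1, filled circles replicate 1, open squares replicate 2); band colours give the class of stretch. KRT19 has the highest H3K27ac coverage, 21.0 and 19.5%, and KRT5, the type II inner root sheath keratins and KRT9 have none.

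H3K4me1 followed the same order of pooled classes with smaller steps, but single stretches did not all follow it. KRT5 had 1.20 and 3.02%, below the 7.84 and 11.6% of the type II hair keratins, and KRT14 had 8.33 and 15.2%. Its peaks covered 11.7% of the luminal, 4.26% of the basal and 2.76% of the hair stretches in replicate 1, and 14.7, 8.25 and 4.72% in replicate 2. Replicate 2 gave the larger value in each class, and its basal value lay above the hair values of both libraries. The basal and hair means, 6.26 ± 2.83% and 3.74 ± 1.39% (SD, n = 2), differed by less than the SD of the basal one. The luminal mean was 13.2 ± 2.1%. Over the autosomes and chromosome X, H3K4me1 peaks covered 2.46% in replicate 1 and 3.8% in replicate 2. The hair values lay near that level, and replicate 2 was the larger there too.

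The balance of the marks differed between classes as measured, but that difference was not tested. The tests compare the marks within each class and cannot reach a threshold. In the luminal stretches H3K4me1 covered 1.03 times as much as H3K27ac, and in the basal ones 1.37 times. In both, H3K4me1 replicate 1 lay below and replicate 2 above the H3K27ac libraries (exact two-sided permutation p = 1 each). In the hair stretches H3K4me1 covered 5.17 times as much, and both H3K4me1 libraries lay above both H3K27ac libraries (exact permutation p = 0.333). That is the smallest p that 2 against 2 libraries allow, and it is 0.999 after Benjamini-Hochberg adjustment over 3 tests. Leaving out H3K4me1 replicate 2 turned the luminal and basal ratios below 1, to 0.914 and 0.934.

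Counting bins of 10 kb gave the same order of classes for H3K27ac. A replicated region is a merged region with at least 1 peak of each library of a mark. Replicated H3K27ac lay in 8 of 13 luminal bins (61.5%), 1 of 7 basal bins (14.3%) and 3 of 69 hair bins (4.35%), beside 14.3% of all bins between the outermost peaks of the chromosomes. The basal share equals the background, but it rests on 1 bin of 7. By coverage, the basal stretches, with 4.47 and 4.64%, lay above the 2.48 and 2.30% of the autosomes and chromosome X. Replicated H3K4me1 lay in 9 luminal bins (69.2%), 2 basal bins (28.6%) and 20 hair bins (29.0%), beside a background of 21.9%. For H3K4me1, the hair and basal shares lay within 1 percentage point of each other.

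**Figure D2:**
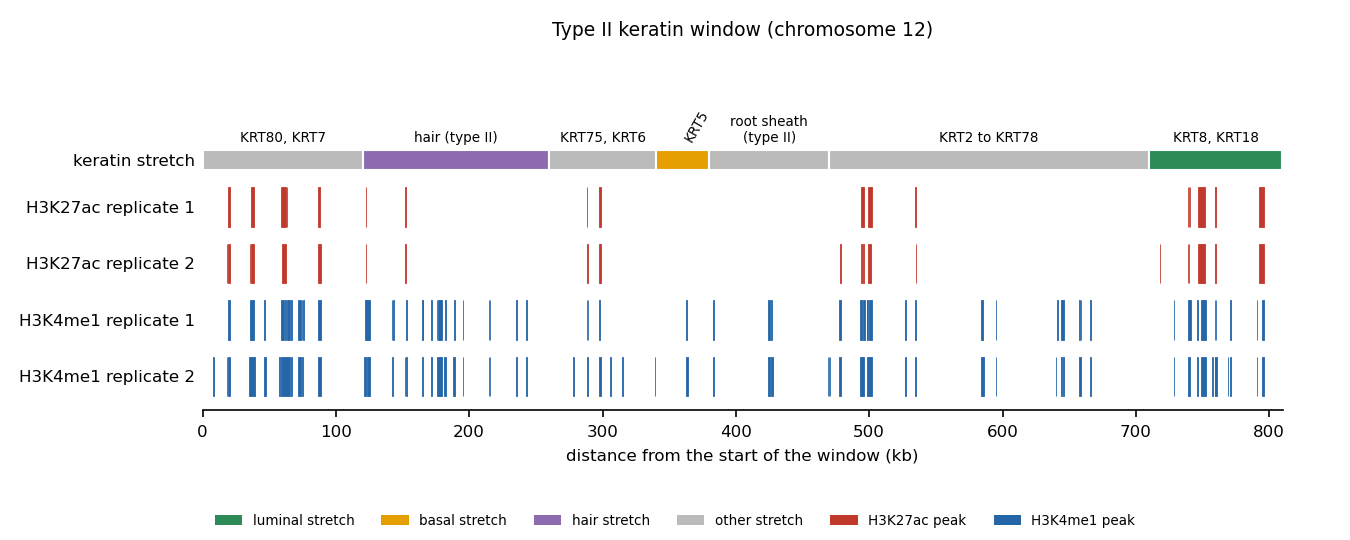
Peaks of the 4 libraries along the type II window (horizontal axis, kb from its start), under a bar showing the stretches by class; peaks have a thin outline so that narrow ones can be seen. H3K27ac gathers at both ends of the window, while H3K4me1 also crosses the hair stretch.

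At KRT8 and KRT18, which form the filaments of luminal prostate cells, H3K27ac lay in 2 broad replicated regions and 3 narrow ones. The broadest ran from 53296537 to 53302015. Replicate 1 covered 5448 bp of it and replicate 2 5462 bp, each as a single peak, so the libraries gave nearly the same width. Its merged width of 5479 bp was exceeded by 831 of the 47128 replicated H3K27ac regions of the autosomes and chromosome X, which puts it above 98.2% of them. It was the widest H3K27ac region of either window. The second ran from 53342031 to 53345977, at the KRT18 end of the stretch, with 3947 bp in replicate 1 and 3678 bp in replicate 2. It was wider than 94.8% of regions. The narrow ones, at 53288951, 53289645 and 53309689, measured 334, 469 and 473 bp.

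Inside both broad regions, H3K4me1 was lopsided. With each region divided into 3 equal parts, H3K4me1 replicate 1 covered 8.11% of the left, 62.2% of the middle and 79.1% of the right part of the region at 53296537. Replicate 2 covered 14.6, 63.2 and 100%. A gap of 2368 bp (replicate 1) or 2232 bp (replicate 2) without H3K4me1 lay left of the middle, between a peak that overhung the left edge and the H3K4me1 on the right. In the region at 53342031 the left part held no H3K4me1 in either library, the middle part 20.4 and 30.8%, and the right part 100% in both. Its H3K4me1-free part spanned 2363 and 2226 bp from the left edge. H3K4me1 therefore covered 49.8 and 59.3% of the first region and 40.1 and 43.6% of the second.

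**Figure D3:**
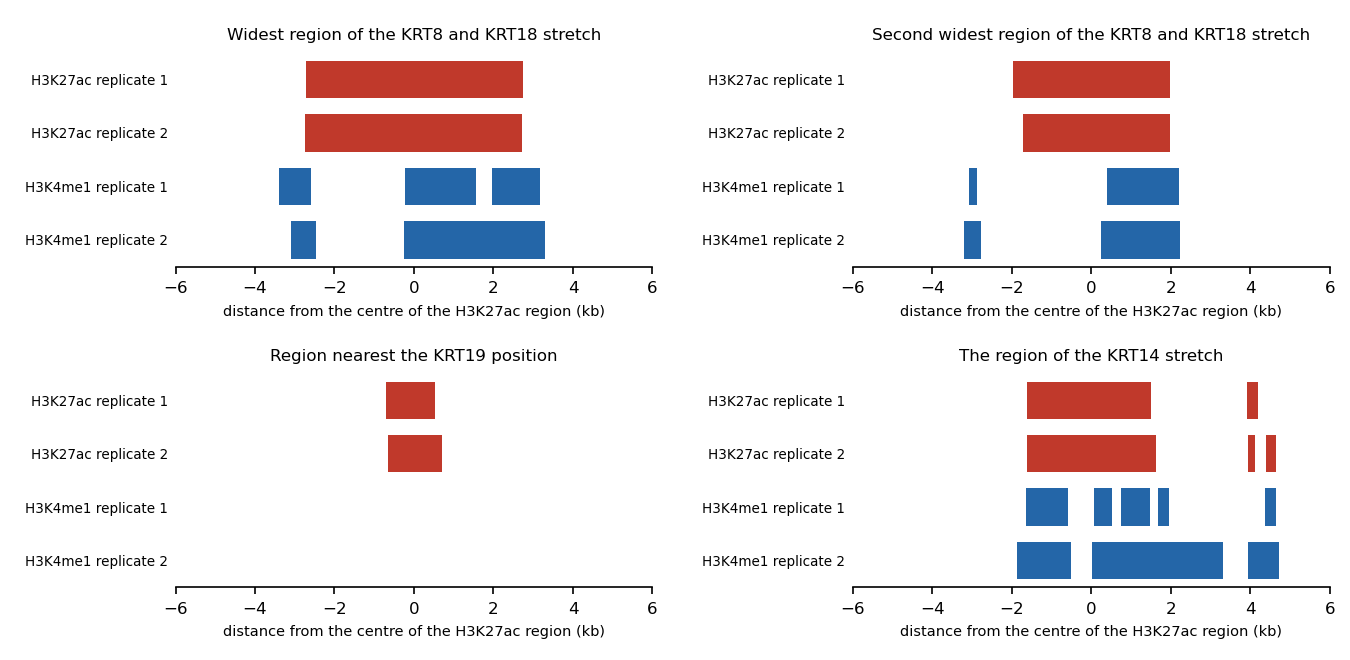
Peaks of the 4 libraries around 4 H3K27ac regions (horizontal axis, kb from the centre of the region). Both KRT8 and KRT18 regions have a part without H3K4me1 on the left, the region nearest KRT19 has no H3K4me1, and the region of the KRT14 stretch has H3K4me1 on both sides of a short gap.

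The KRT8 and KRT18 stretch also held H3K4me1 away from H3K27ac. In all, 9 replicated H3K4me1 regions started there, of which 5 overlapped H3K27ac. The widest, from 53299035 to 53302583 (3549 bp), lay mostly within the broad H3K27ac region, which covered 84.0% of it. Between the broad regions, an H3K4me1 region from 53320303 to 53321572, with 686 bp in replicate 1 and 1174 bp in replicate 2, had no H3K27ac. H3K27ac covered 10.6 kb of the stretch in replicate 1 and 10.7 kb in replicate 2, and H3K4me1 9.16 and 11.6 kb.

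At KRT19, the small type I keratin of simple epithelium, the H3K27ac region nearest the gene carried no H3K4me1. It ran from 39683458 to 39684857 and measured 1239 bp in replicate 1 and 1362 bp in replicate 2. H3K4me1 covered 0% of it in both libraries, although replicate 2 had a peak of 458 bp to its left, at 39677268. To its right lay a pair of H3K27ac regions, from 39691979 to 39693979 (1569 and 1809 bp covered in replicates 1 and 2) and from 39694286 to 39696987 (2491 and 2121 bp). Both sat inside 1 replicated H3K4me1 region from 39691735 to 39697017. At 5283 bp this was the widest H3K4me1 region of either window, exceeded by 371 of 84838 such regions. H3K4me1 replicate 2 spanned it as a single peak and replicate 1 as 2 peaks covering 4678 bp. Another H3K27ac region, at 39705321, covered 987 bp in replicate 1 and 547 bp in replicate 2, over the left part of an H3K4me1 region of 2422 bp.

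**Figure D4:**
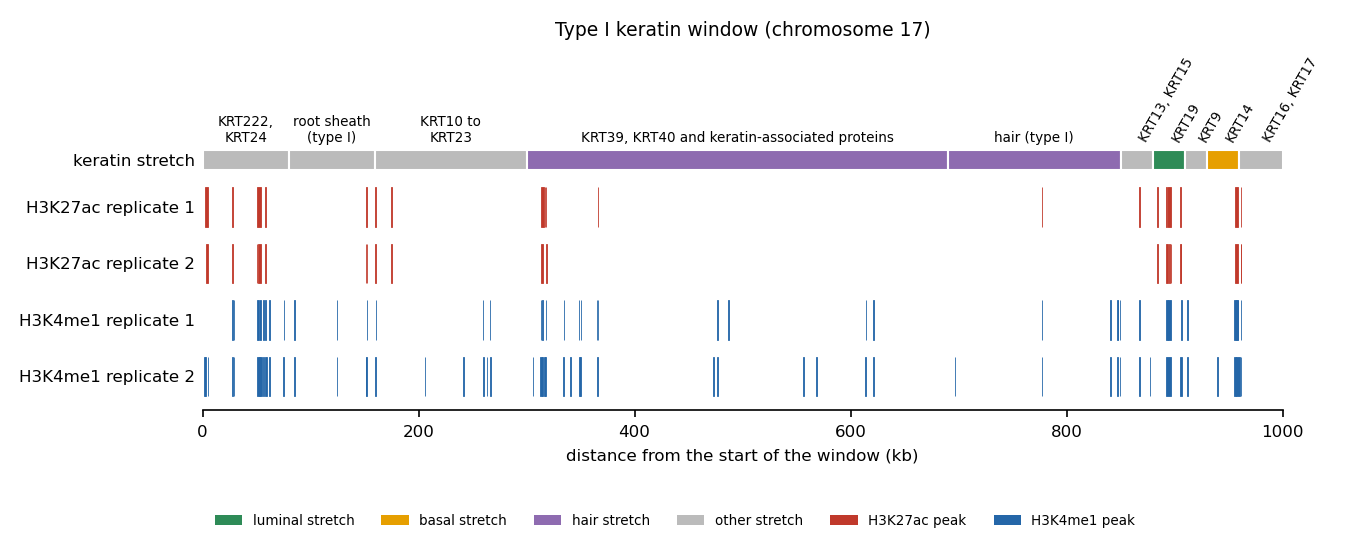
Peaks of the 4 libraries along the type I window (horizontal axis, kb from its start), under a bar showing the stretches by class; peaks have a thin outline so that narrow ones can be seen. A long part of the window over the keratin-associated proteins and type I hair keratins has scattered H3K4me1 and almost no H3K27ac.

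The basal keratins KRT5 and KRT14 had no H3K27ac close to their positions. At KRT5, the type II keratin of basal cells, no H3K27ac peak of either library lay in the 40 kb stretch, and the nearest was 60.9 kb (replicate 1) and 61.3 kb (replicate 2) away. The stretch had H3K4me1 in both libraries, at 1 place, with 481 bp in replicate 1 and 1208 bp in replicate 2, the latter from 52912715 to 52913922. This region was the only replicated one of either mark at KRT5. Within 10 kb of KRT14, the partner of KRT5, H3K27ac was also absent from both lists. H3K4me1 there was limited to 1 peak of 431 bp in replicate 2. The same span around KRT19 held 1239 and 1362 bp of H3K27ac, so both libraries listed the mark near KRT19 and neither did near KRT14. Most of the 6.29 and 5.84 kb of H3K27ac in the KRT19 stretch nevertheless lay more than 10 kb from the KRT19 position.

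All of the H3K27ac of the basal stretches came from 1 region, from 39755566 to 39758815, between the KRT14 position and the KRT16 and KRT17 stretch. It measured 3129 bp in replicate 1 and 3250 bp in replicate 2, was wider than 90.6% of H3K27ac regions, and began 15.6 kb from the KRT14 position. H3K4me1 covered 67.9% of it in replicate 1 and 83.6% in replicate 2, with a gap of 658 and 533 bp that reached into its middle part. On its right, H3K4me1 replicate 2 ran on to 39760498, as part of a region of 3297 bp. With only the 10 kb to either side of each position counted, H3K27ac coverage was 0% at KRT5 and KRT14 in both libraries, and 6.20 and 6.81% at KRT19. H3K4me1 in the same spans did not follow that order. It covered 2.41 and 6.04% at KRT5, 0 and 2.16% at KRT14, and 0 and 2.29% at KRT19, so the luminal KRT19 was not above the basal genes. KRT8 and KRT18 were placed as a span and not as a point. Over 53.29 to 53.35 Mb, H3K27ac covered 16.7 and 16.1% and H3K4me1 13.3 and 17.1%. These narrower counts were chosen after seeing the data.

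The hair stretches carried H3K4me1 largely without H3K27ac. Of 29 replicated H3K4me1 regions in them, 5 overlapped replicated H3K27ac, or 17.2% (exact 95% binomial interval 5.85 to 35.8%, counting error over regions only), beside 47.1% of all H3K4me1 regions. In the luminal stretches it was 7 of 11 (63.6%, 30.8 to 89.1%). The hair stretches held only 4 replicated H3K27ac regions, all 4 overlapping H3K4me1. The low share there therefore largely restates their low H3K27ac coverage and is not a separate result. The type II hair keratins held 15 of the 29 regions and had the densest H3K4me1 of the hair stretches. Coverage there was 7.84% in replicate 1 and 11.6% in replicate 2, while H3K27ac covered 0.994 and 1.01%. That H3K4me1 coverage overlaps the 9.16 and 11.6% of the KRT8 and KRT18 stretch, whose H3K27ac coverage was 10.6 and 10.7%. The whole type II window had 6.80 and 9.45% H3K4me1 coverage, so the type II hair stretch lay only somewhat above its own window. The type I window had 2.86 and 4.98%. The only replicated H3K27ac regions of the type II hair stretch were at 52672513 (407 bp) and 52701895 (1072 bp).

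The type I hair keratins and the keratin-associated proteins were poor in both marks. H3K4me1 covered 1.45 and 2.36% of the type I hair keratin stretch in replicates 1 and 2, and 1.48 and 3.21% of the stretch with the keratin-associated proteins. H3K27ac in the type I hair keratin stretch was a single peak of 344 bp in replicate 1 at 39577111, with none in replicate 2. In H3K27ac replicate 2, no peak lay between 39118574 and 39683495, a run of 564.9 kb. Only 600 of 64868 gaps between peaks of that library were longer (0.925%). In replicate 1 that run was interrupted by 3 peaks of 425, 344 and 547 bp, leaving 410.7 kb as the longest part, which 907 of 54786 gaps exceeded (1.66%). A part of 106.5 kb from 39166622 to 39273073 had no peak in any of the 4 lists. At the left edge of these stretches, H3K27ac did occur, from 39112991 to 39115860 (2870 bp in replicate 1, 2344 bp in replicate 2) and at 39118156 (418 bp).

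Several other keratin stretches also carried H3K27ac. The stretch of KRT80 and KRT7, of which KRT7 is a keratin of simple glandular epithelium, had 8.06 and 7.80% H3K27ac coverage and the highest H3K4me1 coverage of the type II window, 14.1 and 17.6%. Its widest H3K27ac region ran from 52609023 to 52612970, with 3948 bp in replicate 1 and 3631 bp in replicate 2. It lay within the widest H3K4me1 region of that window (52608813 to 52613079, 4267 bp). A second, from 52586403 to 52588624 (2222 bp), lay within an H3K4me1 region of 4125 bp. Next to the widest region, H3K4me1 went on from 52613221 to 52615830 (2610 bp), where the only H3K27ac was a peak of 233 bp in replicate 1.

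The stretch of KRT222 and KRT24 had 9.18 and 8.08% H3K27ac coverage and 7.85 and 13.6% H3K4me1 coverage. It held the widest H3K27ac region of the type I window, from 38850133 to 38854111. Replicate 1 covered all 3979 bp as 1 peak and replicate 2 3473 bp as 2 peaks. An H3K4me1 region from 38850131 to 38852424 covered its left part, and narrower H3K4me1 regions lay over the rest. The region from 38802740 to 38805358 (2619 and 2234 bp) had no H3K4me1 in replicate 1 and 15.8% in replicate 2. It lies close to the left border of the window. An H3K4me1 region from 38857477 to 38859622, with 619 bp in replicate 1 and 2146 bp in replicate 2, carried an H3K27ac region of 497 bp.

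The epidermal and mucosal keratins from KRT2 to KRT78 had H3K27ac in the left part of their stretch. There, H3K27ac regions ran from 53043678 to 53045880 (2164 and 1659 bp) and from 53049109 to 53051768 (2660 and 2585 bp), the latter inside an H3K4me1 region of 3956 bp. Apart from 1 further replicated region of 748 bp at 53084687, no H3K27ac peak lay between there and the KRT8 and KRT18 stretch in either library. This part without H3K27ac measured 182.5 kb over both libraries. H3K4me1 was scattered within it, in replicated regions of up to 2204 bp. The 3 longest runs of the type II window without H3K4me1 in either library lay in this part or reached into it. They measured 61.784, 48.728 and 44.972 kb. The inner root sheath keratins of type II had no H3K27ac in either library, with H3K4me1 coverage of 2.81 and 5.23%. Those of type I had 1.32 and 0.991% H3K27ac coverage. KRT13 and KRT15, of which KRT15 is a basal cell keratin, had 1 H3K27ac peak of 547 bp in replicate 1 and none in replicate 2, beside H3K4me1 coverage of 4.67 and 6.54%. The KRT75 and KRT6 stretch, neighbour of KRT5, had 2.15 and 1.60% H3K27ac coverage and 1.83 and 5.10% H3K4me1 coverage. The stretch from KRT10 to KRT23 had 1.04 and 1.19% H3K27ac and 1.18 and 2.70% H3K4me1 coverage. KRT9 had no H3K27ac, and 1 H3K4me1 peak of 964 bp in replicate 1 and 1059 bp in replicate 2. The KRT16 and KRT17 stretch held 0.26 and 0.431 kb of H3K27ac and 0.271 and 1.286 kb of H3K4me1.

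Across both windows, H3K27ac regions carried H3K4me1 more often than not. Of 31 replicated H3K27ac regions, 28 overlapped a replicated H3K4me1 region (90.3%, 74.2 to 98%), beside 73.5% of all H3K27ac regions. In the type II window it was all 16, and in the type I window 12 of 15. The 3 without H3K4me1 were the one nearest KRT19, the one at 38802740 and one at 38974495 in the stretch from KRT10 to KRT23, which measured 1083 and 1229 bp. Of 87 replicated H3K4me1 regions, 32 overlapped H3K27ac (36.8%, 26.7 to 47.8%), beside 47.1% of all H3K4me1 regions. The median width in the windows was 1393 bp for H3K27ac and 1130 bp for H3K4me1 regions, against 1217 and 944 bp over the autosomes and chromosome X.

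**Figure D5:**
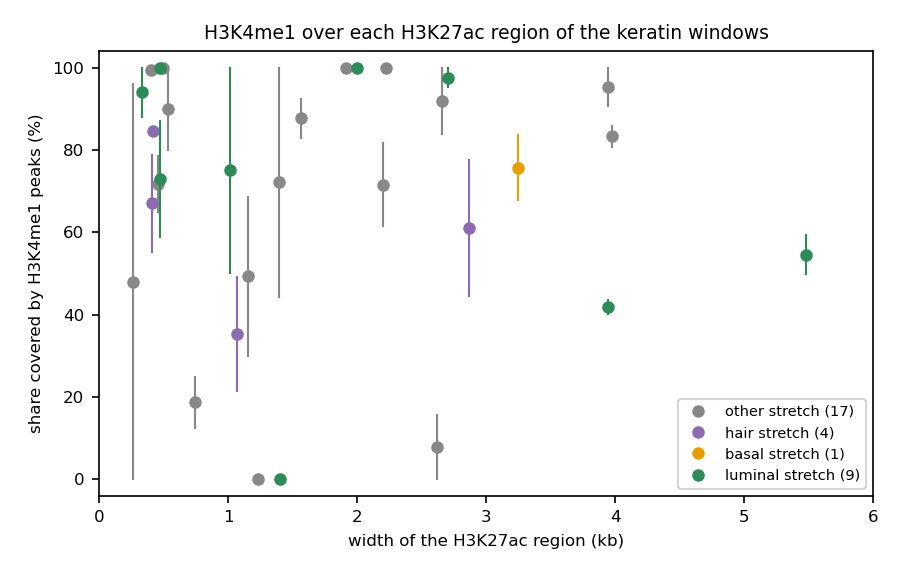
Width of each of the 31 replicated H3K27ac regions (horizontal axis, kb) against the share of it covered by H3K4me1 peaks (vertical axis, %); points are the mean of the H3K4me1 libraries, lines join both libraries, and colours give the class of stretch. The widest region, at KRT8 and KRT18, has 49.8 and 59.3% coverage, and the luminal region at 0% is the one nearest KRT19.

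The H3K27ac libraries resembled each other more than the H3K4me1 libraries did. Over the 31 H3K27ac regions, replicate 2 covered a median of 0.993 times the length of replicate 1, and was larger in 15. Over the 87 H3K4me1 regions the median was 1.41 times, and replicate 2 was larger in 78. Bases in peaks of both libraries made up 79.2% of those in either for H3K27ac and 59.4% for H3K4me1. Of the H3K27ac peaks, 16 of 18 and 16 of 20 in replicate 1 (type II and type I window) overlapped a peak of replicate 2, beside 87.9% of all its peaks. In replicate 2 it was 19 of 23 and 19 of 20, beside 86%. Peaks seen in 1 library only numbered 6 and 5 for H3K27ac replicates 1 and 2, none wider than 547 bp, and 4 and 30 for H3K4me1 replicates 1 and 2. In H3K4me1 replicate 2, 78.8% of the peaks of the type II window and 69.2% of the type I window overlapped a peak of replicate 1, beside 68.7% of all its peaks. In replicate 1 the shares were 95.7 and 97.6%, beside 88.3%.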

How the data were processed

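A list of peaks was deposited by the authors for each H3K27ac and H3K4me1 library; the values used are the other kind of measure, start and end positions in bp of hg19. Tools in the submitters' processing notes are MACS2 2.1.0, Bowtie 1.1.2, Trimmomatic 0.33 and bcl2fastq 2.17. What each tool did, with which threshold and control, is not given in the sources used here. Each list holds no height or significance, and read depth is unknown. Their smallest peaks measured 221 and 172 bp (H3K27ac) and 191 and 232 bp (H3K4me1), so narrow peaks are not listed alike.

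Coverage is the share of bases in peaks. Peaks of both libraries were merged where they overlapped by at least 1 bp. Genome-wide values cover the 22 autosomes and chromosome X. Python 3.11.15, numpy 2.4.6 and scipy 1.17.1 were used, and the interval steps were tested on simulated lists. Positions count from 1. Stretch borders rest on general knowledge of keratin positions in hg19, not on an annotation. The order of the 55 keratin genes was checked against RefSeq, where all were found, with 1 neighbouring pair (KRT81 and KRT86) in the other order. Members, stretches, motifs and the rule for named items (the genes placed above, each stretch, and the 5 widest regions of each mark per window) were chosen with earlier results of these data known. The 10 kb to either side of KRT5, KRT14 and KRT19 and the KRT8 to KRT18 span, the division of regions into 3 parts, and gaps were added after seeing the data. Alternatives tried were single libraries, all peaks, shorter stretches, wider peaks, common widths and stricter overlap.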

Additional observations from a re-analysis of the deposited data

How the results depend on the processing

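Over 17 results and 114 alternatives, 83 stayed within the spread between replicates or, for ratios of marks and counts, kept direction or stayed within 1.5 times, and the order luminal, basal, hair held for both marks in each alternative that gave all 3 classes. Values under single libraries are given as ranges, in which the lower H3K4me1 coverage is always replicate 1 alone. H3K27ac coverage then ran from 12.7 to 13.0% (luminal, 13.7% over replicated regions), from 4.47 to 4.64% (basal, 4.64%) and from 0.605 to 0.844% (hair, 0.691%); H3K4me1 from 11.7 to 14.7% (14.6%), 4.26 to 8.25% (7.64%) and 2.76 to 4.72% (4.49%). The luminal share over the basal share ran from 2.73 to 2.91 for H3K27ac (2.95) and from 1.78 to 2.76 for H3K4me1 (1.91), and over the hair share from 15.4 to 21.0 (19.8) and from 3.11 to 4.25 (3.25). With all peaks, H3K27ac coverage was 14.1% luminal and 0.869% hair. With stretches 10 kb shorter at both ends (those of 30 kb or less kept), H3K27ac was 16.2% luminal and 6.5% basal (ratio 2.49), and H3K4me1 17.2 and 10.7%, with 4.4 times the hair share. Without peaks under 500 bp, luminal H3K27ac was 11.8% (2.54 times basal), hair H3K4me1 2.83% (luminal 4.64 times it), and 19 H3K27ac and 53 H3K4me1 regions remained of 31 and 87. With 10 kb to either side of KRT5, KRT14 and KRT19 and the span of 53.29 to 53.35 Mb, without flanks, for KRT8 and KRT18 (chosen after seeing the data), H3K27ac was 14.3% luminal and 0% basal, and H3K4me1 12.4 and 3.02%, 4.09 times; this luminal H3K4me1 lay in the KRT8 and KRT18 span alone. The cause was not tested, except that shorter stretches and fewer peaks change the lengths by construction. The share of H3K27ac regions with H3K4me1 ran from 78.9 to 93.5%, and that of H3K4me1 regions with H3K27ac from 29.9 to 42.5%. The ratio of marks ran, with 1 library left out, from 0.914 to 1.15 (luminal), 0.934 to 1.81 (basal) and 3.81 to 6.52 (hair). With a replicate block it was 1.02, 1.30 and 5.06, and no test was made on these block ratios. Same-numbered libraries tended to deviate in opposite directions (r = -0.425 over 181 bins of 10 kb), which does not show whether they were paired. Crossed numbers give the same block ratios by construction, so they cannot show whether the pairing matters, although they count among the 83. A stricter threshold by significance or enrichment was not run, since the lists carry neither.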
